A study of Mus musculus with 24 samples.

Results

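Chemokines and their receptors in mouse aorta are described here, as the protein-coding chemokine ligands and receptors with a systematic name (Ccl, Cxcl, Cx3cl, Xcl, Ccr, Cxcr, Cx3cr, Xcr or Ackr with a number) in the authors' comparison tables and a total of at least 20 counts. There were 50 of them among 37606 genes in the count table: 17 CC ligands, 11 CXC ligands, 2 XC or CX3C ligands, 9 CC receptors, 5 CXC receptors, 2 XC or CX3C receptors and 4 atypical receptors. The lowest total was 97 counts (Ccr3). Cxcl11 was outside because its gene type in the tables is a polymorphic pseudogene (435 counts). Ccl1 (29 counts), Ccr8 (72 counts) and Cxcr1 (26 counts) were outside because they are not in the comparison tables.

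Chemokines are small secreted proteins that steer leukocytes through vessel walls and tissue, and their receptors are G protein-coupled receptors on the cells that respond. They are named by the spacing of their first cysteines as CC, CXC, XC or CX3C, and 1 ligand can serve several receptors. Atypical receptors bind chemokines without G protein signalling and clear or store them. In the artery wall, ligands made by endothelial, smooth muscle, fibroblast and resident immune cells draw monocytes and lymphocytes into the adventitia, and angiotensin II (Ang II), the hormone that constricts vessels, is known to induce some of them during infusion.

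The samples were whole aortic homogenates of wild-type (WT) mice that had an Ang II or a sham (vehicle) infusion by subcutaneous minipump for 2 weeks, and whose aortas were taken 2, 4 or 6 months later. Each of the 6 groups (Ang II and sham at 2 months, Ang II and sham at 4 months, Ang II and sham at 6 months) had 4 libraries. The groups compared shared genotype and pump surgery and differed in the infused agent. Nothing in the labels ties a replicate to an animal of its own, so a p-value here is about the scatter of these libraries, part of which may be technical. In a homogenate, more cells of a type and more RNA of a gene per cell cannot be told apart.

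The results below turn mostly on Ccl8 and, less firmly, on Cxcl9 and Cxcl10, so the sequences just upstream of those genes are shown, with that of Ccl12, the neighbour of Ccl8 that did not pass. Each is the 250 bases before the RefSeq start (GRCm38.p6), written 5′ to 3′ on the gene's strand. Capitals mark matches to 3 of the motifs searched on both strands: the TATA box (TATAAA), the core of the interferon-stimulated response element (GAAA, 2 bases of any kind, GAAA) and the AP-1 site (TGANTCA). The windows are chr11:82114935-82115184 (plus strand) for Ccl8, chr11:82101595-82101844 (plus strand) for Ccl12, chr5:92328080-92328329 (minus strand) for Cxcl9 and chr5:92348890-92349139 (minus strand) for Cxcl10.
Ccl8: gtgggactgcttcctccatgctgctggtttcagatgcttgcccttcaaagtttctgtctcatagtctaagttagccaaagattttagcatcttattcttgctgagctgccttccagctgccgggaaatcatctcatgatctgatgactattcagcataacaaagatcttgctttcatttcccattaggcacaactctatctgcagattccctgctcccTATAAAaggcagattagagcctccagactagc
Ccl12: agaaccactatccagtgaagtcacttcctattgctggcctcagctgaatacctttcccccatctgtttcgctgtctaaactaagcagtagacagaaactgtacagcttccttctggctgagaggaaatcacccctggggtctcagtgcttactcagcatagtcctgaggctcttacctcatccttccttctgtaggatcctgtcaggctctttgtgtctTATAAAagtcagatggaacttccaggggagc
Cxcl9: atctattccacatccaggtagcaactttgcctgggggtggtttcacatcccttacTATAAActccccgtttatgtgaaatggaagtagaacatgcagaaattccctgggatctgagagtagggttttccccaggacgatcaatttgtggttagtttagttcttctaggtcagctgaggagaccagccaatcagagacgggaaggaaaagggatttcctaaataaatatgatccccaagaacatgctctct
Cxcl10: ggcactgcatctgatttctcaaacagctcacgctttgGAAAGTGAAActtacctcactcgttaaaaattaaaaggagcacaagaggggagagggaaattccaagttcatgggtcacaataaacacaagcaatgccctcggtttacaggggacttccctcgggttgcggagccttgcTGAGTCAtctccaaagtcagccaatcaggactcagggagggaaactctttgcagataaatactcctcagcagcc
The Ccl8 and Ccl12 windows each held a TATA box close to the start, 32 to 27 bases before it in Ccl8 and 31 to 26 bases before it in Ccl12. The Cxcl9 match lay farther away, 195 to 190 bases before the start. The Cxcl10 window held the interferon element core 213 to 204 bases and the AP-1 site 74 to 68 bases before the start. Of the 37 members with a promoter in the table, 12 held TATAAA, 2 the interferon core (Cxcl10 and Cxcl14) and 5 the AP-1 site. Over all 32851 windows of the table, 12.4%, 2.98% and 6.75% held these motifs. A strict form of the NF-kappaB motif (GGG, 2 bases of any kind, TTTCC) was found in 5 members and in 1.41% of all windows. The 5 were Ccl20, Ccl9, Ccr3, Cxcl1 and Cxcl2. Other forms of the NF-kappaB site were not searched, so a window without this match can still hold such a site. TTCNNNGAA (GAS, the STAT site) was found in 3 members and 7.02% of windows, and TTGCNNAA (C/EBP) in 3 members and 9.56%. A match is a description of the letters and not a site shown to be used.

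In units of 1000000 counts, libraries held 19.38 to 35.13 (2 months), 19.16 to 24.9 (4 months) or 37.64 to 58.68 (6 months). Chromosome M took 31.75% to 59.31% of the counts at 6 months, against at most 16.32% earlier, so time and this difference between libraries cannot be told apart between 6 months and the earlier times, and levels are compared only within a time or between 2 and 4 months. Smooth muscle, fibroblast and endothelial markers of the aorta were present in all 24 libraries (lowest sums 478.1, 783.6 and 612.8 CPM, counts per 1000000 after TMM scaling). So were adipocyte markers, at 3491 CPM or more. Summed smooth muscle markers were 709.7 to 1406 CPM in Ang II libraries at 2 months against 2826 to 5313 CPM in sham libraries. There 7 of 8 markers were called lower, against 1.81% of all genes called in either direction. At 4 months the sums were 478.1 to 801.2 CPM in Ang II and 605.1 to 2108 CPM in sham libraries. The sham libraries at 2 months thus stood above all other libraries of 2 and 4 months. Single libraries held other tissue: airway epithelium markers summed to between 5.586 and 8186 CPM, skeletal muscle markers to between 41.03 and 8593 CPM, and B and plasma cell markers to between 26.85 and 622.7 CPM. Members that moved with these lists are described with them below.

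At least 1 count of 39 members was found in every library. Mean levels over all 24 libraries were at or above 10 CPM for 10 members and below 1 CPM for 13. Per kb of annotated exon, over the 16 libraries at 2 and 4 months, the highest mean levels were those of Ccl11 (20 CPM per kb), the eosinophil attractant eotaxin, Ccl8 (19.2), a monocyte attractant, and Ccl6 (17.9), a ligand made by myeloid cells. Cxcl12 (14.2), the stromal ligand that retains progenitors and lymphocytes, Cxcl13 (13.2), the B cell attractant, and Ccl5 (13.2), made by T cells among others, followed. The highest receptors were Cxcr4 (13.1), the signalling receptor of Cxcl12, and Ackr3 (12.0), its atypical receptor. The lowest member was Ccr3, the eotaxin receptor, at 0.0125 CPM per kb, against the 20 of its ligand Ccl11.

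**Figure D1:**
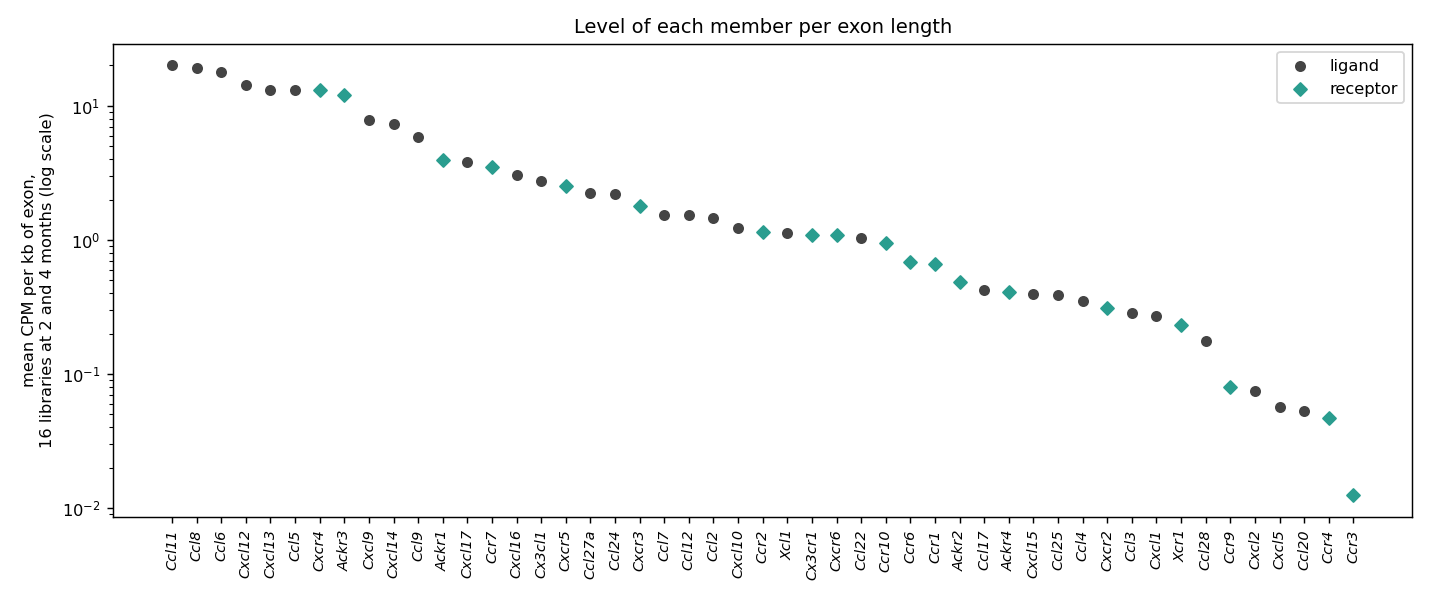
Mean level of each member reported over the 16 libraries at 2 and 4 months, in CPM per kb of exon on a log axis, ordered from high to low, with ligands as circles and receptors as diamonds. Ccl11 (20), Ccl8 (19.2) and Ccl6 (17.9) stand at the left and Ccr3 (0.0125) at the right.

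Ccl8 (ENSMUSG00000009185.2, chromosome 11, 82115185 to 82116799, plus strand, build mm10) encodes a CC ligand that attracts monocytes and T cells. It is the last gene of the monocyte chemoattractant cluster, in which Ccl2, Ccl7, Ccl11, Ccl12 and Ccl8 lie within 81.2 kb. At 2 months it lay at 6.48, 13.2, 13.4 and 10.8 CPM in Ang II aortas, against 2.61, 2.57, 3.97 and 1.15 CPM in sham aortas. The groups did not overlap, and the highest sham library stayed below the lowest Ang II library. Ccl8 rose 4.32-fold (log2 fold change 2.11, SE 0.38, edgeR quasi-likelihood adjusted p = 0.0297). It was 1 of 41 members tested that passed, against 1.81% of all genes and 0.371% that passed as higher. Leaving out 1 library at a time kept the log2 fold change between 1.87 and 2.40, but Ccl8 passed in 3 of those 8 fits: it did not without Ang II replicate 2, 3 or 4 or sham replicate 1 or 2 (edgeR adjusted p up to 0.121). It did not pass either without the libraries with over 200 CPM of B and plasma cell markers (log2 fold change 1.75, edgeR adjusted p = 0.461), a removal that leaves fewer libraries.

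At 4 months Ccl8 lay at 14.9, 37.1, 11.9 and 25.6 CPM in Ang II aortas, against 4.07, 2.14, 1.30 and 5.38 CPM in sham aortas. The 2 sets of libraries were again apart. The log2 fold change was 2.81 (SE 0.52, 7.03-fold), and it did not pass (edgeR adjusted p = 0.0575). It did pass with DESeq2, with voom weights, with DESeq2 size factors in edgeR, with mitochondrial and ribosomal RNA genes removed and with all 24 libraries in 1 fit (adjusted p from 8.00e-07 with DESeq2 to 0.0495 with its size factors in edgeR), so the call at 4 months rests on the setting. Leaving out 1 library at a time gave log2 fold changes of 2.44 to 3.17 and passed without sham replicate 4, where Ccl6 and Ccl9 passed too. In this comparison 0 of 41 members passed, against 0.707% of all genes, while 9 members, 8 of them higher, had an unadjusted p under 0.05 by edgeR, against 15.5% of all genes (6.61% for those higher), and DESeq2 called 2 members, Ccl8 and Cxcl9.

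Over the 16 libraries at 2 and 4 months, with time as a term, Ccl8 rose 5.50-fold (log2 fold change 2.46, SE 0.34, edgeR adjusted p = 0.00292). All 8 Ang II libraries lay above all sham libraries of both times, the lowest at 6.48 CPM and the highest sham library at 5.38 CPM. The call held without each of the 16 libraries in turn (edgeR adjusted p from 0.00309 to 0.0103). It was lost without the libraries with over 100 CPM of airway markers (log2 fold change 2.20, edgeR adjusted p = 0.934, 0 genes called) and without those with over 200 CPM of B and plasma cell markers (log2 fold change 2.75, edgeR adjusted p = 0.267), which leave fewer libraries. Ccl8 was the single member called of 42 tested, against 0.915% of all genes, of which 0.507% were called as higher. Its Ang II effect at 4 months was not shown to differ from that at 2 months (log2 difference 0.69, SE 0.65, edgeR adjusted p = 0.750), and 0 of 42 members had an effect that differed between those times (0% of all genes by edgeR). DESeq2 found 0 members with such a difference too, and 183 genes. At an unadjusted p under 0.05 by edgeR that comparison held 1 member, against 10.6% of genes.

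At 6 months Ang II aortas did not stand above sham aortas. Ccl8 lay at 4.67, 3.90, 3.93 and 6.02 CPM in Ang II aortas, against 7.76, 11.3, 4.88 and 5.68 CPM in sham aortas, with overlapping libraries (log2 fold change -0.69, SE 0.29, edgeR adjusted p = 0.960). No member passed at 6 months (0 of 43), nor did any gene by edgeR (0%). Still, 4 members and 5.05% of genes had an unadjusted p under 0.05. The 4 members were the CC ligands Ccl5, Ccl8 and Ccl22, lower in Ang II aortas, and Cxcl1, higher. For Ccl8, 3 of the 4 Ang II libraries lay below all sham libraries. Ccl22 averaged 0.713 CPM in Ang II and 3.89 CPM in sham aortas, where replicate 2 held 12.2 CPM. Ccl5 averaged 1.84 CPM in Ang II and 7.24 CPM in sham aortas, with 20.9 CPM in that sham library. Cxcl1 averaged 1.19 CPM in Ang II and 0.454 CPM in sham aortas. The raw totals were largest at 6 months, but after scaling 1 count was worth up to 0.0771 CPM there, against at most 0.0465 CPM earlier. DESeq2 called 54 genes there and 0 members. The Ang II effect on Ccl8 was lower at 6 months than over 2 and 4 months by 3.12 on the log2 scale (log2 difference -3.12, SE 0.53, edgeR adjusted p = 0.0112, 1 of 45 members tested, against 0.328% of all genes). This contrast was added after the values were seen, and its call was lost without Ang II replicate 3 of the 6-month group (edgeR adjusted p = 0.0547) and with a replicate block (edgeR adjusted p = 0.0601). Each effect in it was taken within a time, but the libraries at 6 months had the higher chromosome M share given above, so a change with time and a change that goes with that share cannot be told apart.

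None of the 4 neighbours of Ccl8 in the cluster passed at any time. Ccl2, the main ligand of Ccr2, lay at 3.97, 1.64, 1.63 and 1.71 CPM in Ang II aortas at 2 months, against 1.09, 1.27, 0.899 and 2.50 CPM in sham aortas. Replicate 1 of the Ang II group stood above its other 3 libraries, and the groups overlapped (log2 fold change 0.67, SE 0.44, edgeR adjusted p = 0.707). At 4 months it lay at 2.33, 1.16, 2.49 and 1.25 CPM in Ang II aortas, against 0.576, 1.72, 1.26 and 0.830 CPM in sham aortas, and the groups overlapped again (log2 fold change 0.74, SE 0.41, edgeR adjusted p = 0.422). At 6 months Ccl2 ranged from 0.599 to 1.39 CPM in Ang II aortas and from 0.423 to 1.66 CPM in sham aortas. Over 2 and 4 months the log2 fold change was 0.70 (SE 0.30, edgeR adjusted p = 0.294).

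Ccl7, a monocyte attractant that also binds Ccr2, lay at 2.66, 1.32, 1.46 and 1.22 CPM in Ang II aortas at 2 months, against 0.881, 0.720, 1 and 0.533 CPM in sham aortas. All 4 Ang II libraries were above all 4 sham libraries, and the log2 fold change was 1.11 (SE 0.35, edgeR adjusted p = 0.232). At 4 months the libraries overlapped, from 0.926 to 1.59 CPM in Ang II and from 0.755 to 1.49 CPM in sham aortas. They overlapped at 6 months too, from 0.779 to 0.874 CPM in Ang II and from 0.563 to 1.74 CPM in sham aortas. Ccl12, the remaining monocyte attractant of the cluster, averaged 0.670 ± 0.494 CPM in Ang II and 0.870 ± 0.160 CPM in sham aortas at 2 months (SD, n = 4 each). Its averages were 0.896 ± 0.539 CPM in Ang II and 0.847 ± 0.117 CPM in sham aortas at 4 months. Ccl11, which lies between Ccl7 and Ccl12, averaged 20.5 ± 4.42 CPM in Ang II and 20.1 ± 5.28 CPM in sham aortas at 2 months, and 22.8 ± 1.34 CPM in Ang II and 23 ± 1.54 CPM in sham aortas at 4 months. Normal 95% intervals were taken from the SE, and with 4 libraries a group they are too narrow. That of the Ccl11 log2 fold change was -0.35 to 0.45 at 2 months and -0.14 to 0.16 at 4 months. That of Ccl8 was 1.36 to 2.86 at 2 months and 1.80 to 3.83 at 4 months. No base of the Ccl8 exons overlapped another gene, and none of its 50-base words occurred in another transcript.

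**Figure D2:**
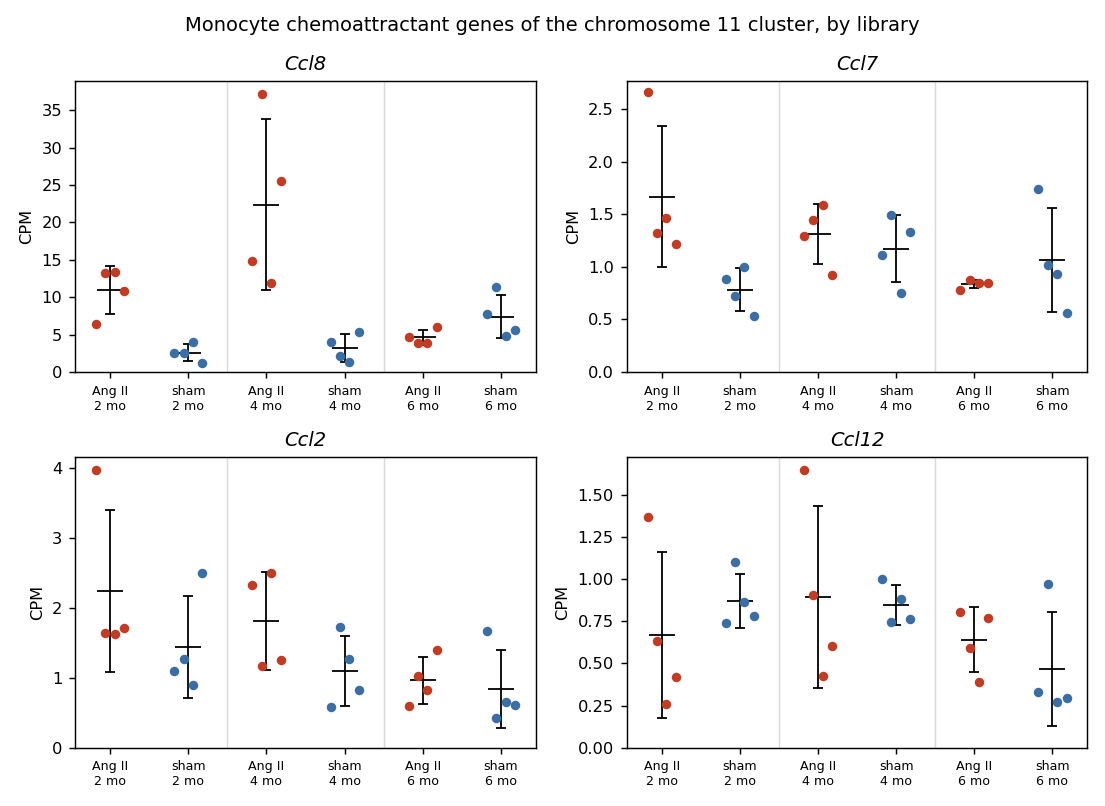
CPM of 4 monocyte attractant genes of the chromosome 11 cluster in each of the 24 libraries, on axes that start at 0, with Ang II in red left of sham in blue at 2, 4 and 6 months; bars give the mean and SD of 4 libraries. Ccl8 is higher in all Ang II libraries at 2 and 4 months (6.48 CPM or more, against at most 5.38 CPM in sham) and not at 6 months, and Ccl7 is apart at 2 months only.

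Macrophage and monocyte markers moved with Ccl8. The 14 markers summed to 659 to 1048 CPM in Ang II libraries at 2 months against 413.6 to 660.6 CPM in sham libraries, and to 775.1 to 1227 CPM in Ang II libraries at 4 months against 393.9 to 658.1 CPM in sham libraries. At 6 months the sums were 767.6 to 1174 CPM in Ang II and 840.1 to 1356 CPM in sham libraries. At 2 months 4 of the 14 were called higher (Adgre1, Ms4a7, Trem2 and Cd68) and 1 lower (Mertk, an engulfment receptor), against 1.81% of all genes called. There 13 of 14 had a log2 fold change above 0, with a median of 0.69. At 4 months 4 were called higher (Cd68, Ms4a7, Trem2 and Mpeg1) and none lower, against 0.707% of all genes called. All 14 were above 0 there, with a median of 0.94. Over both times 8 were called higher, against 0.507% of all genes. There 13 of 14 were above 0, with a median of 0.80. The largest log2 fold change of the 14 was that of Ms4a7, at 1.85 (edgeR adjusted p = 7.47e-05). Cd68, a lysosomal protein of macrophages, had a log2 fold change of 1.63 (edgeR adjusted p = 7.47e-05), and Trem2, a lipid-sensing receptor, one of 1.51 (edgeR adjusted p = 0.000160). The part of these cells in the Ccl8 result was not tested.

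Ccl6 and Ccl9, 2 CC ligands of myeloid cells that act on Ccr1, lie next to each other in a second cluster of chromosome 11, where Ccl5, Ccl9, Ccl6, Ccl3 and Ccl4 span 138.9 kb. Ccl6 averaged 34.7 ± 3.54 CPM in Ang II and 25.5 ± 9.29 CPM in sham aortas at 2 months, and 41.9 ± 4.6 CPM in Ang II and 26.2 ± 8.95 CPM in sham aortas at 4 months (SD, n = 4 each). At both times sham replicate 4 stood above its group, at 38.9 CPM at 2 months and 37.2 CPM at 4 months, and within the range of the Ang II libraries. Over both times the log2 fold change was 0.58 (SE 0.16, edgeR adjusted p = 0.0984). Ccl9 averaged 17.9 ± 1.86 CPM in Ang II and 15.5 ± 4.58 CPM in sham aortas at 2 months, and 23.1 ± 3.20 CPM in Ang II and 15.2 ± 4.08 CPM in sham aortas at 4 months. Its log2 fold change over both times was 0.42 (SE 0.14, edgeR adjusted p = 0.175). Neither passed, and the macrophage markers given above were higher in the same libraries on balance. Ccl3 and Ccl4, the macrophage inflammatory proteins, were too low to be tested at any time, with group means of at most 0.396 CPM. Ccl3 lay at 0.299, 0.197, 0.257 and 0.244 CPM in Ang II aortas at 2 months, against 0.176, 0.137, 0.0691 and 0.041 CPM in sham aortas. Ccl4 lay at 0.362, 0.47, 0.388 and 0.362 CPM in Ang II aortas at 4 months, against 0.192, 0.233, 0.168 and 0.266 CPM in sham aortas. The groups were apart in both cases, on 6 to 10 counts a library in Ang II and 1 to 5 in sham for Ccl3, and 9 to 13 in Ang II and 4 to 8 in sham for Ccl4. At the other times the libraries of both genes overlapped.

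Cxcl9 and Cxcl10, the interferon-induced ligands of Cxcr3, lie 27.5 kb from end to end on chromosome 5. Cxcl9 lay at 32.8, 32.6, 38.5 and 25.5 CPM in Ang II aortas at 4 months, against 23.1, 21.7, 18.4 and 19.2 CPM in sham aortas. The groups were apart, and the log2 fold change of 0.67 (SE 0.13, 1.59-fold) did not pass (edgeR adjusted p = 0.0607). At 2 months the groups overlapped, at 18.3, 19.2, 30.6 and 26.8 CPM in Ang II and 23.2, 21.3, 19.3 and 10 CPM in sham aortas. At 6 months they overlapped too, from 5.93 to 8.83 CPM in Ang II and from 5.41 to 7.10 CPM in sham aortas. Cxcl10 lay at 5.06, 4.02, 3.46 and 2.94 CPM in Ang II aortas at 4 months, against 1.84, 2.14, 2.89 and 2.42 CPM in sham aortas. The lowest Ang II library was just above the highest sham library (log2 fold change 0.76, SE 0.24, edgeR adjusted p = 0.176). At 2 months Cxcl10 ranged from 1.79 to 3.61 CPM in Ang II and from 1.11 to 2.78 CPM in sham aortas, and at 6 months from 1.67 to 3.32 CPM in Ang II and from 1.59 to 2.99 CPM in sham aortas. Their receptor Cxcr3, of activated T cells, averaged 4.64 ± 1.59 CPM in Ang II and 2.92 ± 1.39 CPM in sham aortas at 4 months, with overlapping libraries. Of the Cxcl10 exon bases, 5.91% overlap Art3, and the strand setting of the counting is not given in the sources used here.

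Cxcl16, the ligand of Cxcr6 that also occurs bound to the membrane, lay at 10.1, 12.4, 9.70 and 9.62 CPM in Ang II aortas at 2 months, against 5.78, 9.39, 8.64 and 8 CPM in sham aortas. The groups were apart by a small margin (log2 fold change 0.42, SE 0.19, edgeR adjusted p = 0.476), and 18.3% of its exon bases overlap Zmynd15. At 4 months they overlapped, from 8.68 to 15.4 CPM in Ang II and from 4.79 to 10.1 CPM in sham aortas, and at 6 months from 6.32 to 9.87 CPM in Ang II and from 8.38 to 12.6 CPM in sham aortas. Over 2 and 4 months the log2 fold change was 0.50 (SE 0.16, edgeR adjusted p = 0.142).

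Cxcl12 was the most abundant member by CPM. At 2 months it lay at 98.1, 137, 133 and 124 CPM in Ang II aortas, against 124, 113, 101 and 135 CPM in sham aortas (log2 fold change 0.09, SE 0.13, edgeR adjusted p = 0.917). At 4 months it lay at 107, 118, 140 and 139 CPM in Ang II aortas, against 108, 98.2, 99.9 and 83.7 CPM in sham aortas. In the later comparison 3 of 4 Ang II libraries were above all sham libraries (log2 fold change 0.39, SE 0.11, edgeR adjusted p = 0.133). Sham aortas alone differed between the times by -0.30 (log2 of 4 over 2 months, SE 0.11, edgeR adjusted p = 0.225). At 6 months Cxcl12 ranged from 64.9 to 111 CPM in Ang II and from 73.6 to 89.9 CPM in sham aortas.

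**Figure D3:**
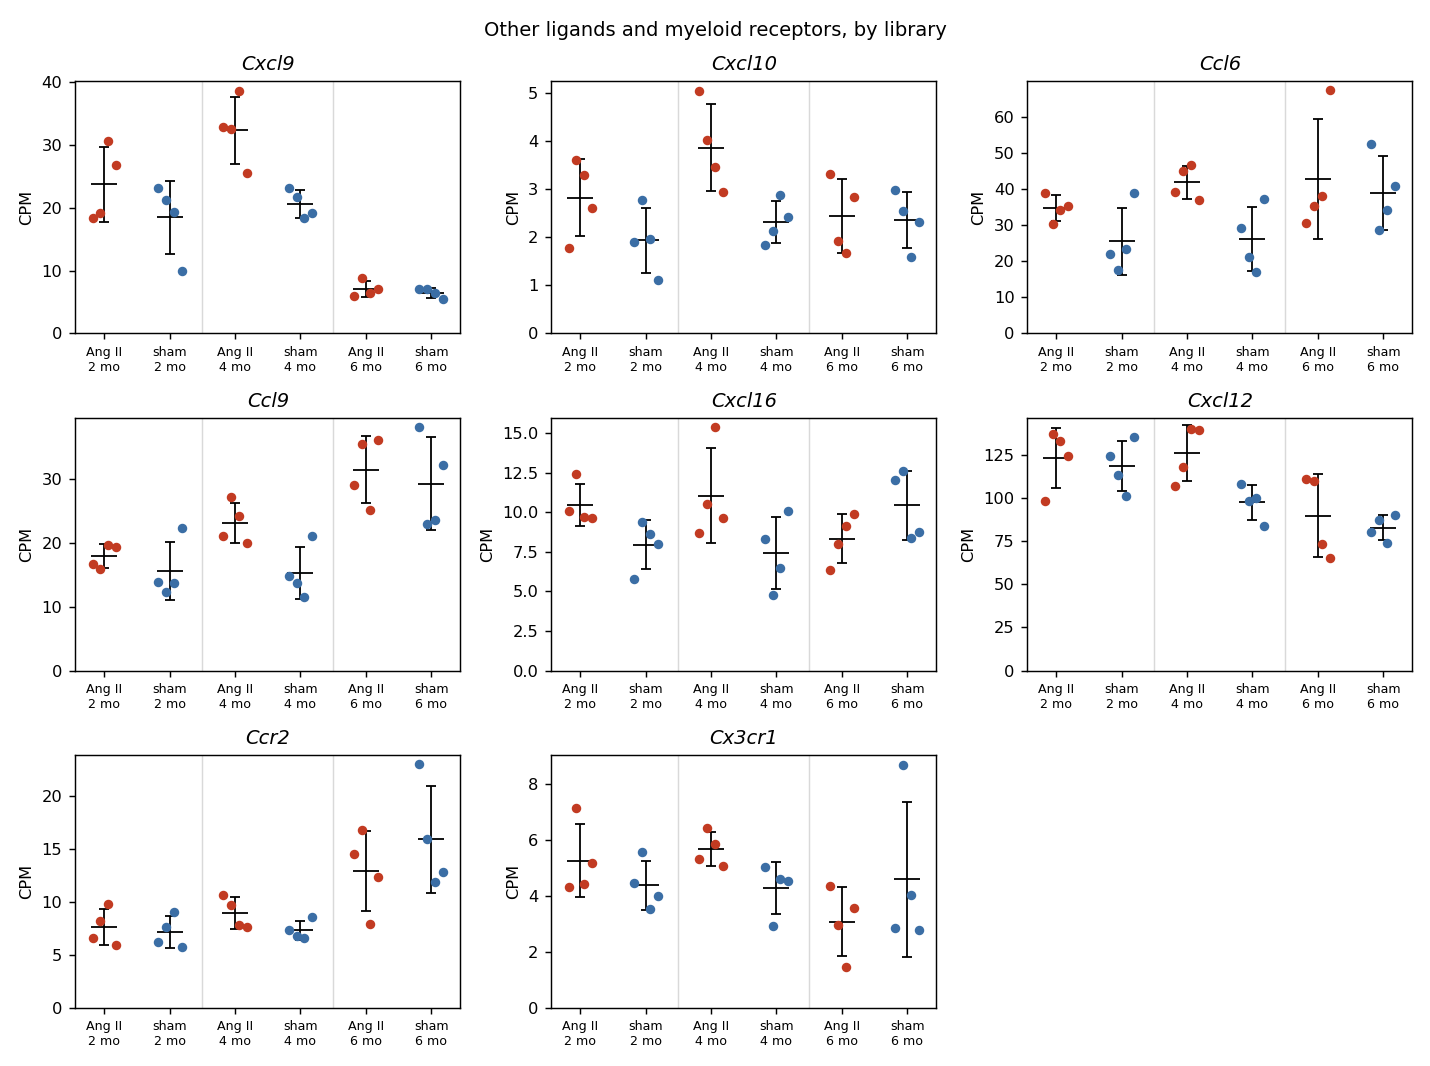
CPM of 6 ligands and 2 receptors of myeloid cells in each of the 24 libraries, on axes that start at 0, with Ang II in red left of sham in blue at each time; bars give the mean and SD of 4 libraries. At 4 months Cxcl9 (25.5 CPM or more in Ang II, at most 23.1 CPM in sham), Cxcl10 and Cx3cr1 are apart, and at 2 months the Ccr2 libraries of both groups overlap.

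Other ligands gave few differences. Ccl25, the thymic and gut ligand of Ccr9, lay at 2.13, 2.64, 2.68 and 2.42 CPM in Ang II aortas at 4 months, against 3.61, 2.70, 4.19 and 2.69 CPM in sham aortas. Its groups were apart downwards by a narrow margin (log2 fold change -0.40, SE 0.20, edgeR adjusted p = 0.392), as were those of 7.03% of all genes. They overlapped at 2 months (2.07 to 3.91 CPM in Ang II, 2.35 to 3.65 CPM in sham) and at 6 months (4.10 to 6.62 CPM in Ang II, 3.88 to 6.60 CPM in sham). Cx3cl1, fractalkine, the membrane-bound ligand of Cx3cr1 on endothelium, averaged 11.4 ± 1.20 CPM in Ang II and 12.4 ± 1.87 CPM in sham aortas at 2 months, and 9.10 ± 0.852 CPM in Ang II and 9.90 ± 2.34 CPM in sham aortas at 4 months. Cxcl14, a ligand of stroma and epithelium, averaged 12.4 ± 3.63 CPM in Ang II and 12.7 ± 1.15 CPM in sham aortas at 2 months, and 13.1 ± 3.17 CPM in Ang II and 15.3 ± 4.25 CPM in sham aortas at 4 months. The neutrophil attractant Cxcl1 had a log2 fold change of 0.70 over 2 and 4 months (SE 0.31, edgeR adjusted p = 0.298), at levels of at most 1.13 CPM in any library at those times. Xcl1, the lymphotactin of T and NK cells, had one of 0.91 (SE 0.37, edgeR adjusted p = 0.269), at most 1.48 CPM, and 18.7% of its exon bases overlap Gm20743. For Ccl27a, a ligand of Ccr10, 45.0% of the 50-base words occur in other genes, so its level is uncertain (log2 fold change at 4 months -0.37, SE 0.16, edgeR adjusted p = 0.307).

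None of the receptors tested passed, and Ccr8, which was outside the members, was not assessed. Ccr2, the receptor of inflammatory monocytes, lay at 6.60, 8.17, 9.83 and 5.93 CPM in Ang II aortas at 2 months, against 6.17, 7.61, 9.09 and 5.78 CPM in sham aortas (log2 fold change 0.11, SE 0.22, edgeR adjusted p = 0.937). At 4 months it lay at 10.7, 9.73, 7.81 and 7.61 CPM in Ang II aortas, against 7.37, 6.74, 6.63 and 8.60 CPM in sham aortas (log2 fold change 0.31, SE 0.16, edgeR adjusted p = 0.398). Ang II and sham libraries overlapped at both times, and at 6 months they ranged from 7.95 to 16.8 CPM in Ang II and from 11.9 to 23 CPM in sham aortas. Ccr1, which binds Ccl6, Ccl7 and Ccl9 among others, averaged 1.68 ± 0.680 CPM in Ang II and 1.84 ± 0.518 CPM in sham aortas at 2 months. At 4 months Ccr1 averaged 2.64 ± 0.563 CPM in Ang II and 1.32 ± 0.791 CPM in sham aortas.

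Cx3cr1, the fractalkine receptor of patrolling monocytes and resident macrophages, lay at 5.31, 6.44, 5.86 and 5.07 CPM in Ang II aortas at 4 months, against 5.03, 2.93, 4.61 and 4.52 CPM in sham aortas. The groups were apart by a small margin (log2 fold change 0.43, SE 0.19, edgeR adjusted p = 0.329). At 2 months they overlapped, at 4.30, 7.14, 4.42 and 5.16 CPM in Ang II and 4.44, 5.55, 3.53 and 3.98 CPM in sham aortas (log2 fold change 0.30, SE 0.24, edgeR adjusted p = 0.781). At 6 months the ranges were 1.45 to 4.34 CPM in Ang II and 2.77 to 8.66 CPM in sham aortas.

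None of the 4 atypical receptors passed at any time. Ackr3, the scavenger of Cxcl12, lay at 47.7, 37.8, 53.3 and 48.0 CPM in Ang II aortas at 2 months, against 45.3, 30.5, 45.1 and 60 CPM in sham aortas (log2 fold change 0.07, SE 0.19, edgeR adjusted p = 0.957). At 4 months it lay at 28.4, 35.6, 30.8 and 31.5 CPM in Ang II aortas, against 40.6, 42.0, 24.6 and 42.2 CPM in sham aortas, where replicate 3 stood apart (log2 fold change -0.22, SE 0.18, edgeR adjusted p = 0.561). At 6 months it ranged from 46.8 to 67.2 CPM in Ang II and from 52.5 to 84.4 CPM in sham aortas. Ackr4, the scavenger of Ccl19, Ccl21 and Ccl25, was apart at 6 months only, at 4.70, 4.34, 5.11 and 4.63 CPM in Ang II aortas against 4.23, 3.41, 3.74 and 4.24 CPM in sham aortas (log2 fold change 0.27, SE 0.16, edgeR adjusted p = 0.9997). At 2 months it ranged from 1.60 to 2.62 CPM in Ang II and from 1.59 to 4.06 CPM in sham aortas, and at 4 months from 1.41 to 3.5 CPM in Ang II and from 1.38 to 2.28 CPM in sham aortas. Ackr1, the chemokine-binding receptor of venular endothelium and red cells, averaged 5.05 ± 1.33 CPM in Ang II and 5.07 ± 0.956 CPM in sham aortas at 2 months, and 25.7% of its exon bases overlap Cadm3. Ackr2, the scavenger of inflammatory CC ligands, averaged 1.65 ± 0.644 CPM in Ang II and 1.35 ± 0.638 CPM in sham aortas at 2 months, and 1.94 ± 0.799 CPM in Ang II and 1.09 ± 0.529 CPM in sham aortas at 4 months.

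Over all members tested, the Ang II libraries leaned upwards at 2 and 4 months, mostly within the spread. At 2 months 30 of 41 members had a log2 fold change above 0 (51.7% of all genes), with a median of 0.25 against 0.01 over all genes. At 4 months 33 of 41 did (57% of all genes), with a median of 0.49 against 0.04. Over both times it was 33 of 42 (54.3% of all genes), with a median of 0.42 against 0.02. At 6 months 21 of 43 did (45.2% of all genes), with a median of -0.03, equal to that of all genes at this precision. Members share cells, libraries and regulation, so these counts are descriptions and not tests.

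Among members tested, 3 were apart upwards at 2 months (Ccl7, Ccl8 and Cxcl16), against 2.38% of all genes. At 4 months 4 of those tested were apart upwards (Ccl8, Cxcl9, Cxcl10 and Cx3cr1), against 3.22% of all genes. At 6 months 1 of 43 was apart upwards (Ackr4), against 1.33% of all genes that were apart upwards. Ccl8 was the single member apart at both 2 and 4 months. Over 2 and 4 months 12 of 42 members had an unadjusted p under 0.05 (15.1% of all genes), all 12 of them higher in Ang II aortas (7.19% of all genes): Ccl2, Ccl6, Ccl7, Ccl8, Ccl9, Cx3cr1, Cxcl1, Cxcl9, Cxcl10, Cxcl12, Cxcl16 and Xcl1. All but Ccl8 missed the adjusted threshold.

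**Figure D4:**
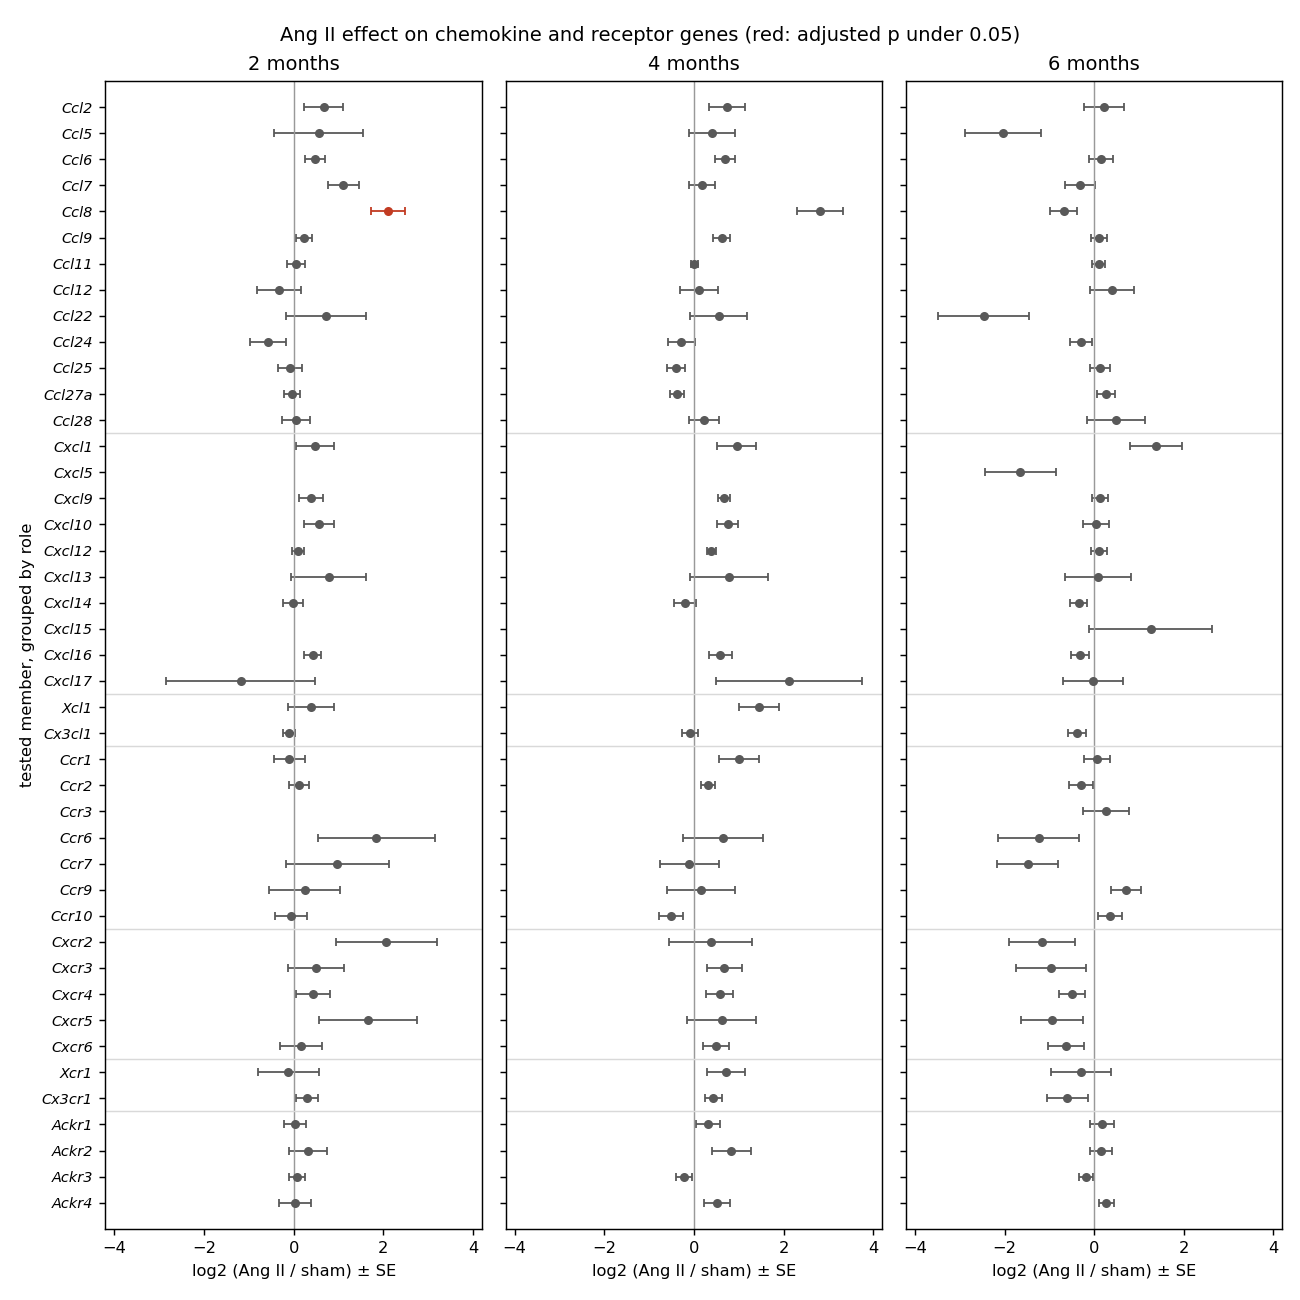
Log2 fold change (Ang II over sham) with its SE for each member tested and reported at 2, 4 or 6 months, grouped by role, with members that passed in red. Ccl8 at 2 months (2.11) is the single red point, the next panel has Ccl8 at 2.81 without a call, and at 6 months Ccl8 stands at -0.69.

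By role, the CXC ligands had 8 of 9 tested members above 0 over 2 and 4 months (median 0.52), the CC ligands 9 of 13 (median 0.42) and the CXC receptors 5 of 5 (median 0.58). The CC receptors had 5 of 7 above 0 (median 0.21) and the atypical receptors 3 of 4 (median 0.21). Of the XC and CX3C genes, 1 of 2 ligands and 2 of 2 receptors were above 0. Of these 42 members 1 passed.

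Receptors of lymphocytes and dendritic cells varied strongly between libraries of 1 group. Cxcr5, the follicular homing receptor of B cells, lay at 4.42, 21.3, 11.1 and 1.12 CPM in Ang II aortas at 2 months, against 1.06, 9.77, 0.83 and 0.574 CPM in sham aortas. At 4 months it lay at 1.89, 3.91, 33.1 and 12.9 CPM in Ang II aortas, against 12.5, 4.51, 5.45 and 11.1 CPM in sham aortas. Ccr7, the lymph node homing receptor, lay at 3.05, 15.3, 4.85 and 1.05 CPM in Ang II aortas at 2 months, against 0.917, 10.7, 0.588 and 0.369 CPM in sham aortas. For both genes replicate 2 was the highest library of its group at 2 months.

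These libraries were those with the most B and plasma cell markers. The 8 markers summed to 463.5 CPM in Ang II replicate 2 at 2 months and to 230.0 CPM in sham replicate 2, the highest of their groups, with the next library at 267.3 CPM in Ang II and 41.23 CPM in sham. Of the 16 signalling receptors, 12 were highest in that Ang II library and 10 in that sham library. At 4 months 9 were highest in Ang II replicate 3 (622.7 CPM of markers) and 12 in sham replicate 1 (387.8 CPM). At 6 months 7 were highest in Ang II replicate 4 (214.2 CPM) and 11 in sham replicate 2 (402.4 CPM). Cxcr5, Ccr6, Ccr7, Cxcr2 and Cxcr3 were among them in all 6 groups. Ligands varied strongly too. Ccl5 lay at 5.23, 22.3, 10.4 and 3.14 CPM in Ang II aortas at 2 months, against 1.73, 22.9, 2.42 and 1.48 CPM in sham aortas, highest in replicate 2 of each group. Cxcl13 lay at 14.3, 29.6, 24.1 and 3.98 CPM in Ang II aortas, against 2.19, 13.5, 2.56 and 24.9 CPM in sham aortas, and its highest sham library was replicate 4 and not the one with the most markers. None of these members passed at any time. Ccl8 lay at 13.2, 13.4, 6.48 and 10.8 CPM in the Ang II libraries at 2 months with 463.5, 267.3, 113.4 and 56.21 CPM of B and plasma cell markers, so its 2 highest values were in the 2 libraries with the most markers. In the sham library with 230.0 CPM of markers it lay at 2.57 CPM, within the 1.15 to 3.97 CPM of its group. In Ang II replicate 3 at 4 months, with 622.7 CPM of markers, Ccl8 lay at 11.9 CPM, the lowest value of its group. In sham replicate 1 at 4 months, with 387.8 CPM of markers, it lay at 4.07 CPM, within the 1.3 to 5.38 CPM of its group. The part of these cells in the Ccl8 result was not tested beyond the removals given above.

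Ligands of airway epithelium were high in single libraries. Cxcl17, a mucosal ligand, reached 14.4 CPM in sham replicate 3 at 2 months, the library with the highest airway marker sum (8186 CPM), and lay at 0 CPM in Ang II replicate 4 at 2 months and in 2 sham libraries at 4 months. Cxcl15, known as lungkine, reached 10.7 CPM in Ang II replicate 2 at 2 months and 12.0 CPM in Ang II replicate 3 at 6 months, and was at most 0.691 CPM in the other libraries at 2 and 4 months. It did not go with the airway sum: those Ang II libraries held 1290 and 4346 CPM of airway markers, while sham replicate 3 at 2 months (8186 CPM) held 0.691 CPM of Cxcl15 and Ang II replicate 2 at 4 months (5339 CPM) held 0.543 CPM. Of the 8 genes of the airway marker list tested at 2 months, 1 had a log2 fold change above 0, Sftpc. This is a surfactant gene of the alveoli rather than the airways. Sftpc averaged 41.4 CPM in Ang II and 0.261 CPM in sham aortas at 2 months, where Cxcl15 averaged 2.75 and 0.173 CPM. At 6 months Sftpc averaged 64.2 CPM in Ang II and 18.4 CPM in sham aortas, and Cxcl15 averaged 4.06 and 1.67 CPM. A level of 0 allows up to 3 counts, at most 0.129 CPM at 2 months and 0.140 CPM at 4 months. Neither Cxcl17 nor Cxcl15 passed in a comparison it was tested in, and the part of airway tissue in their levels was not tested.

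**Figure D5:**
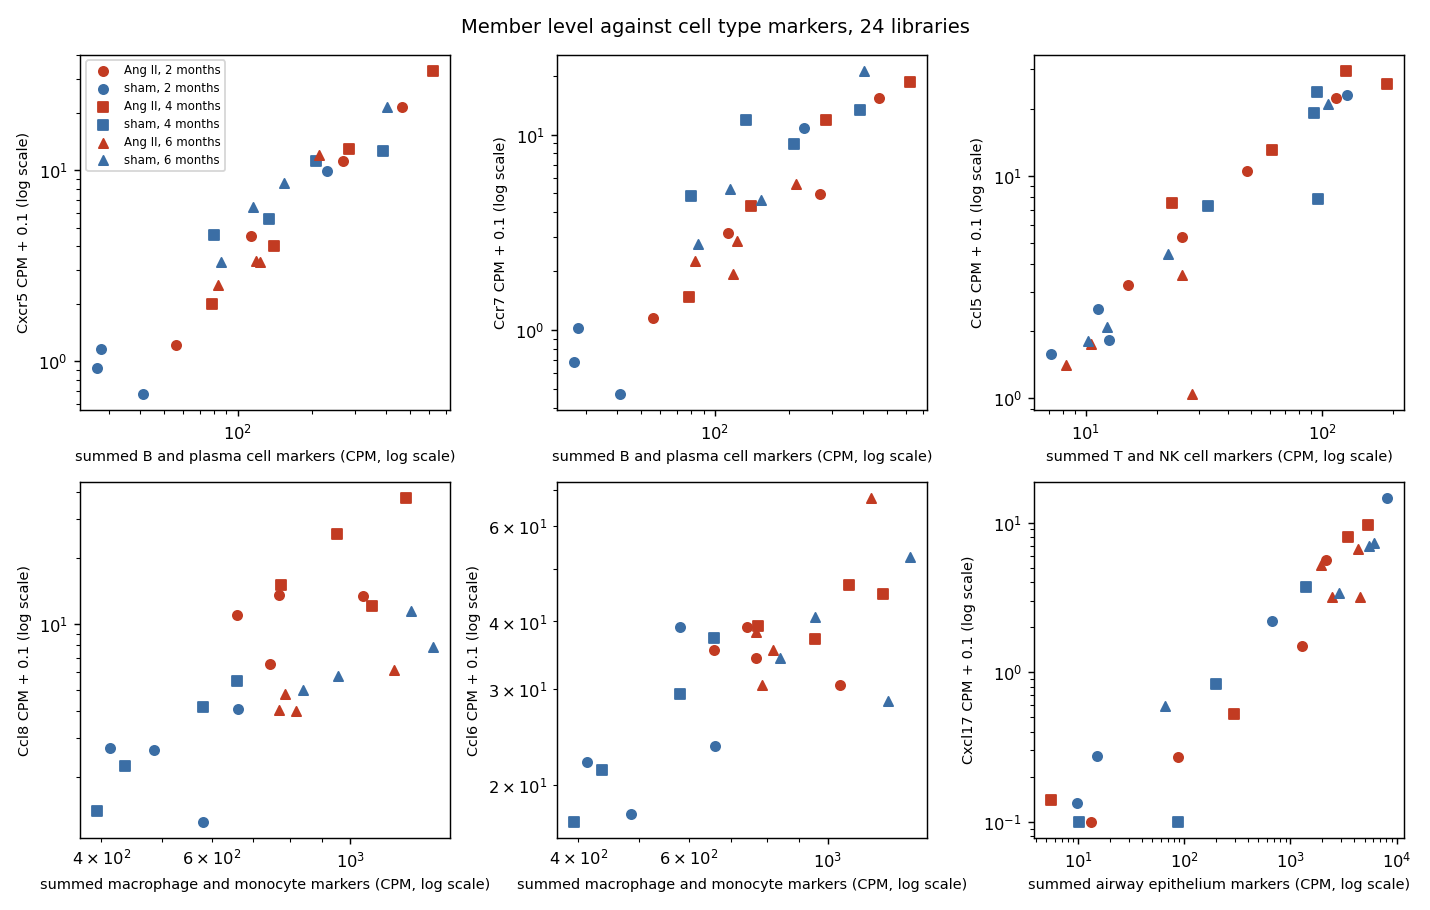
Level of 6 members (CPM + 0.1, log axis) against the summed CPM of a cell type's markers (log axis) in the 24 libraries, Ang II in red and sham in blue, circles for 2, squares for 4 and triangles for 6 months. Cxcr5 and Ccr7 lie along the B and plasma cell sum (26.85 to 622.7 CPM) with both treatments mixed. Ccl8 is set against the macrophage and monocyte sum. Its Ang II libraries at 2 and 4 months (6.48 CPM or more) stand above the sham libraries of those times. That sum was 659 to 1048 CPM in Ang II and 413.6 to 660.6 CPM in sham libraries at 2 months. At 4 months the sum was 775.1 to 1227 CPM in Ang II and 393.9 to 658.1 CPM in sham libraries.

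At 2 and 4 months 9 members were too low for the filter on counts (Ccl3, Ccl4, Ccl17, Ccl20, Ccr3, Ccr4, Cxcl2, Cxcl5 and Cxcl15). At 6 months 7 were (Ccl3, Ccl4, Ccl17, Ccl20, Ccr4, Cxcl2 and Xcl1). At the times where they were not tested their group means were at most 0.484 CPM, apart from Cxcl15. With no filter all 50 members were in the fit at 2, 4 and 6 months, and none of these genes passed. At such low counts the lack of a call says little of their differences and nothing of their presence in rare cells. In sham aortas alone, 4 against 2 months, 0 of 40 members passed (0.00619% of all genes by edgeR), 1 had an unadjusted p under 0.05 (Cxcl12, against 15.8% of genes) and 0 were apart (9.4% of genes). DESeq2 called 744 genes and 0 members there, and limma voom with quality weights called 1 member, Ccr7.

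Few genes around the chemokine system passed, and few of all genes did. The shares of all genes were 1.81% at 2 months, 0.707% at 4 months, 0% at 6 months and 0.915% over 2 and 4 months. At such shares, 0 or 1 passing in lists of this size says little about the lists. Of 29 genes tested for chemokine receptor signalling (G proteins, arrestins, kinases and Rac activators), 0 passed at 2, 4 or 6 months or over 2 and 4 months together, where the median log2 fold change was 0.28. The lists of adhesion molecules and selectins (14 tested, median 0.57), of chemokine cleavage and presentation (11 tested, median 0.04) and of inflammatory cytokines and their signalling genes (12 tested, median 0.11) also had 0 passing over 2 and 4 months. Among other chemotactic ligands and receptors 1 of 16 passed over 2 and 4 months, C5ar1, the receptor of the complement fragment C5a. It averaged 6.53 CPM in Ang II and 3.79 CPM in sham aortas at 2 months, and 5.98 CPM in Ang II and 3.66 CPM in sham aortas at 4 months (log2 fold change 0.76, SE 0.16, edgeR adjusted p = 0.0305). All genes tested had a median of 0.02 in this comparison.

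The authors' deposited table gave Ccl8 a fold change of 4.29 at 2 months and of 6.98 at 4 months, with an adjusted p of 3.06e-06 and 1.38e-06. In the authors' deposited table for 2 months 1 of 40 members with an adjusted p passed 0.05, against 4.24% of genes, and at 4 months 3 of 42 did (Ccl8, Cxcl9 and Cxcl12), against 6.11%. At 6 months the authors' deposited table held 0 of 47 members under that threshold, against 0.311% of genes. Their 4-month calls for Ccl8, Cxcl9 (fold 1.58) and Cxcl12 (fold 1.30) were not made by the main edgeR fit here. For Ccl8 the 4-month call depended on the setting, as given above.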

How the data were processed

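RNA from 24 aortic homogenates was sequenced as messenger RNA libraries, per the labels' protocols. The submitters' processing notes list build mm10 with STAR, featureCounts, cutadapt, FastQC and DESeq2. Their versions, the strand setting and the treatment of reads shared by genes were not stated there or in the labels. The authors deposited whole-number counts per gene, and comparison tables with log2 fold changes, p-values and fold changes as a ratio, from which single authors' values are printed and named as such.

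Counts were tested with edgeR 4.0.16 (R 4.3.3): filterByExpr (minimum count 10, minimum total 15), TMM scaling, the quasi-likelihood F test and Benjamini-Hochberg adjustment over all genes tested, at 0.05. The contrasts were Ang II against sham within a time and over 2 and 4 months with time as a term, the difference of that effect between times (interaction), and sham at 4 against 2 months. The SE is the log2 fold change over the square root of F. CPM of single libraries use TMM factors of all 24 libraries, whose scale differs from that of the 2-, 4- and 6-month fits by at most 4.11%, 2.84% and 4.91%. One count is worth at most 0.0429, 0.0465 and 0.0771 CPM at 2, 4 and 6 months, and limits from counts cover counting error only. Exon lengths and read sharing are from the GENCODE M21 annotation, and promoters are from a RefSeq table in which 37 of 50 members were found. No replicate pair agreed within sampling noise (chi-square per degree of freedom of 24.3 or more over 36 pairs). The steps were tested on simulated data.

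The members, lists and tests were chosen with earlier results of these data known. Values of single libraries, or at some times only their range, are given for 3 kinds of members. They are those called in a comparison, those whose groups do not overlap at a time, and Ccl8, Ccl2, Ccr2, Cx3cr1, Cxcl12 and Ackr3. There were 15 in all, of which Ccl3 and Ccl4 were too low to be tested and have values at 1 time each. Of these 15, 1 is not reported here and is left out of the figures; counts over members include it. Ccl6, Ccl9, Cxcl1, Xcl1 and the lymphoid and airway examples were picked after their values were seen. Alternatives were DESeq2 1.42.0, its size factors in edgeR, limma 3.58.1 voom with quality weights, a mean count of 5 or more as the filter, no filter, mitochondrial and ribosomal RNA genes removed, a replicate block, all 24 libraries in 1 fit, a call rule that adds a log2 fold change of 1 or more in size, and leaving out each library. The contrast of 6 against 2 and 4 months and the removal of libraries by airway or B and plasma cell markers were added after the data were seen.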

Additional observations from a re-analysis of the deposited data

Results flagged for a closer look

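The Ang II effect on Ccl8 differed between 6 months and the earlier times by -3.123 on the log2 scale (edgeR adjusted p = 0.0112). The call was lost without Ang II replicate 3 at 6 months (edgeR adjusted p = 0.0547) and with a replicate block (edgeR adjusted p = 0.0601). All 8 Ang II libraries at 2 and 4 months were above the sham libraries of their time, while at 6 months 0 of 4 were. The 6-month libraries had a higher chromosome M share (31.75% to 59.31%), and the part of that in the difference cannot be told apart from time.

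In 4 groups 1 library stood far from the other 3, among 90 groups of 4 checked (15 members in 6 groups each), and chance alone gives about 1 in 20 such groups. Ccl2 lay at 3.97 CPM in Ang II replicate 1 at 2 months, against 1.63 to 1.71 CPM in its other 3 libraries. The neighbouring Ccl7 lay at 2.66 CPM in the same library, against 1.22 to 1.46 CPM. Ackr3 lay at 24.6 CPM in sham replicate 3 at 4 months, against 40.6 to 42.2 CPM, and Ackr4 at 4.06 CPM in sham replicate 4 at 2 months, against 1.59 to 1.73 CPM.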

How the results depend on the processing

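Of 156 alternative counts of members called (7 comparisons), 134 stayed within 1.5 times of the count reported, 12 were higher and 10 lower. Of 1165 alternative log2 fold changes of single members, 1133 kept their direction and side of the threshold, 15 passed it anew, 10 no longer passed and 7 changed sign. At 2 months (1 member called) the count was 2 with voom weights (Ccl6 and Ccl8) and 0 without libraries with over 200 CPM of B and plasma cell markers, and 0 to 2 when 1 library was left out. At 4 months (0 called) it was 2 with DESeq2 (Ccl8 and Cxcl9), 1 (Ccl8) with DESeq2 size factors, voom weights, mitochondrial and ribosomal RNA genes removed or all 24 libraries in 1 fit, and 0 to 3 when 1 library was left out. Over 2 and 4 months (1 called) it was 3 with DESeq2 (Ccl6, Ccl8 and Cxcl10), 3 with voom weights (Ccl6, Ccl8 and Ccl9), 0 without libraries with over 100 CPM of airway markers, 0 without those with over 200 CPM of B and plasma cell markers, and 1 to 3 when 1 library was left out. For the effect at 6 against 2 and 4 months (1 called) it was 0 with a replicate block (Ccl8 adjusted p = 0.0601) and 0 to 1 when 1 library was left out. For sham at 4 against 2 months it was 1 with voom weights (Ccr7). The removals by markers leave as few as 2 libraries a group at 2 months and, for airway markers at 4 months, 1 Ang II library, which is assumed to vary like the others. The cause of the other changes was not tested.

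Signs changed in estimates near 0 with no call. At 2 months Cx3cr1 had -0.0876 without the airway-rich libraries, and Ackr3 had -0.0449, Ccr2 -0.142 and Cxcl12 -0.0910 without the B cell-rich ones. When 1 library was left out, Ackr3 at 2 months ranged from -0.0713 to 0.235, Ccr2 at 2 months from -0.0144 to 0.249, and Ccl8 in sham at 4 against 2 months from -0.0811 to 0.587. Ccl8 kept a positive log2 fold change at 2 months, 4 months and over both in all fits run. Its replicate block values were 2.16, 2.84 and 2.49, with 208, 0 and 41 genes called, against 297, 114 and 157 without the block. Replicate numbers were not taken as a pairing of samples: same-numbered libraries of Ang II and sham had correlated deviations of -0.445 to 0.574, and 3 of 12 libraries correlated best with their own number. At this depth changes in the members below 1 CPM, and in those untested, may have been missed.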
